A study of Mus musculus with 6 samples.

Results

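Replication-dependent histone genes encode the proteins that wrap newly copied DNA during cell division. They were taken as every gene of the array table whose platform symbol has the form H1f1 to H1f6, H2ac, H2bc, H3c or H4c with a number, or an older Hist1h to Hist4h symbol, with pseudogenes left out. The rule found 46 of the 24675 named genes, comprising 6 H1, 12 H2A, 13 H2B, 7 H3 and 8 H4 genes. The RefSeq gene table of GRCm38.p6 places 41 of them in the large histone cluster on chromosome 13 and 5 in the smaller one on chromosome 3. That table holds 64 symbols of this form, and the other 18 were not analysed here.

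The tissue lay beside the dorsal aorta of C57Bl/6 mouse embryos at embryonic day 10.5, and its RNA was hybridised to Affymetrix Gene 2.0 ST arrays. Ventral tissue, from beneath the aorta, was measured on 3 arrays, and dorsal tissue, from the space between notochord and aortic roof, on 3 arrays. Both regions were cut by laser from unfixed cryosections of the same embryos, which carried no named allele or treatment, and between 200 and 1000 pg of RNA per sample was amplified with the Ovation Pico V2 system. The sources used here do not say how many embryos a sample holds.

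The core histones H2A, H2B, H3 and H4 form the protein spool of the nucleosome, and H1 binds the DNA where it enters and leaves that spool. Each is encoded by many short genes without introns that are switched on together in S phase, so their messages are widely used as a sign of DNA replication. These messages end in a stem-loop held by the protein Slbp, where most other messages carry a poly(A) tail, and the sources used here do not say whether the amplification primed tailless messages. Copies of a class are nearly identical in sequence, and the probes behind each probe set are not given in the sources either, so the signal of a single copy is uncertain.

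The signals are RMA values, log2-transformed, where 1 unit is a doubling of signal. Array medians lay between 3.20 and 3.27, no detection calls were used, and a signal below the median was not shown to lie above background. Levels of different probe sets are therefore not compared as amounts of RNA. In whole tissue, fewer cells of a kind and less RNA per cell cannot be told apart. Markers of the tissues near the aorta were mostly dim: the medians of 6 endothelial markers lay between 2.99 and 3.35 in ventral and between 3.02 and 3.17 in dorsal arrays, and Pecam1 had a mean of 2.96. Of 6 sclerotome markers, 6 had lower ventral means, and their medians lay between 3.63 and 3.69 in ventral and between 4.07 and 4.20 in dorsal arrays. The medians of 6 red-cell markers ranged from 6.57 to 10.7 in ventral and from 8.05 to 10.3 in dorsal arrays. The part of tissue make-up in the histone values was not tested.

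Histone genes were split between bright and dim signals. A log2 signal above 5 was reached by 13, 11 and 11 of the 46 genes in ventral arrays 1, 2 and 3 and by 7, 12 and 10 in dorsal arrays 1, 2 and 3. These were 15.2% to 28.3% of the histone genes, against 5.01% to 5.43% of all genes. Averaged over the 6 arrays, 10 histone genes had a signal of at least 5 and 18 had a signal under 3. The brightest was H2bc13, an H2B gene of the chromosome 13 cluster, at a mean of 8.90, and on chromosome 3 it was H2ac20, an H2A gene, at 5.20. Of the 7 H3 genes, 6 had a mean under 3, and H3c10 alone was bright, at 5.57. None of the 6 H1 genes had a mean of at least 5.

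**Figure D1:**
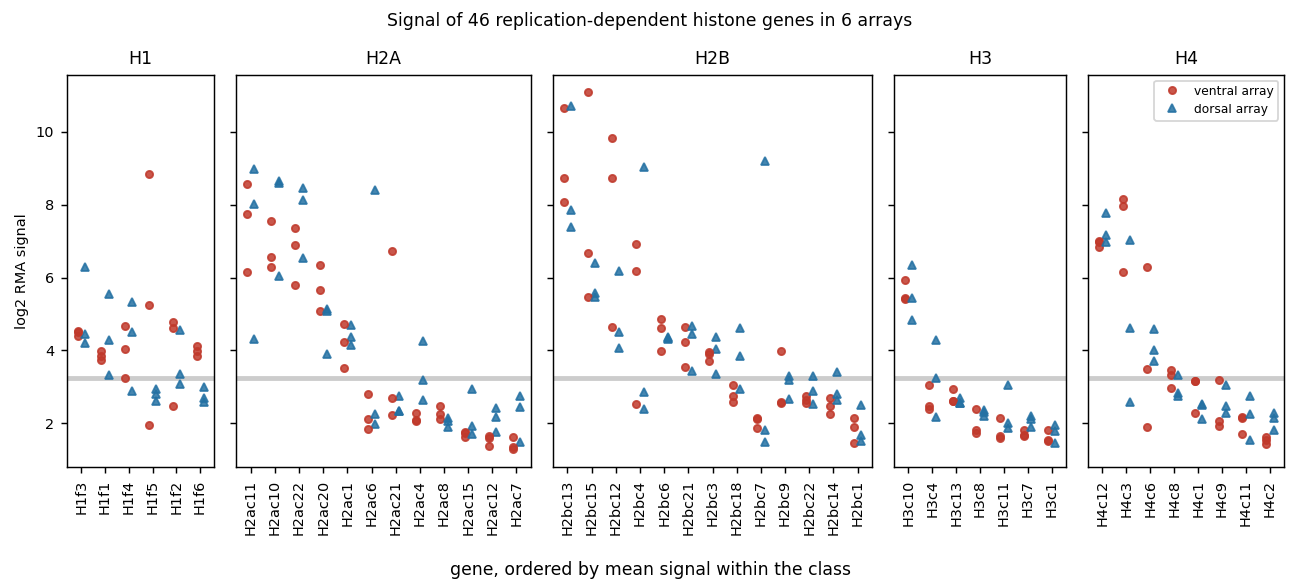
Log2 RMA signal (vertical axis) of each of the 46 histone genes (horizontal axis, by class and mean signal) in the 3 ventral arrays (red circles) and the 3 dorsal arrays (blue triangles); the grey band spans the array medians, 3.20 to 3.27. Values of a gene such as H2bc7 or H1f5 lie far apart within 1 tissue, while those of most dim genes lie close together.

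Ventral and dorsal tissue could not be told apart by any single histone gene after adjustment. Limma, with the replicate number as a block and Benjamini-Hochberg adjustment over all 24675 genes, called 0 of the 46 at an adjusted p of 0.05, where it called 0 genes, or 0%, of the whole table, and 0 of the 46 in the fit without the block. At an unadjusted p under 0.05 it found 4 histone genes higher in ventral tissue, 8.70% of the 46 against 4.32% of all genes. The 4 were H1f6, H2ac20, H2bc12 and H4c3. It found 7 lower in ventral tissue, 15.2% against 5.90% of all genes. These were H2ac4, H2ac7, H2ac12, H2ac22, H2bc18, H3c11 and H4c2. Without the block the counts were 3 higher and 5 lower, as H2bc12, H2ac22 and H3c11 had unadjusted p-values of 0.058, 0.112 and 0.155. All arrays of 1 region exceeded all of the other in 5 histone genes. The ventral arrays were the higher ones in 1, H1f6, or 2.17% of the 46 against 6.74% of all genes, and the lower ones in 4, or 8.70% against 12.0% of all genes.

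As a group, 17 histone genes had a higher and 29 a lower mean in ventral tissue, so 37.0% were higher, against 42.0% of all genes. Their median log2 difference, ventral minus dorsal, was -0.19, with an SD of 0.30 over the medians of the 3 equal-numbered pairs, against -0.06 over all genes. Without dorsal array 2 the median of the histone genes was -0.00. That fit had no block, and 3 histone genes were lower in it at an unadjusted p under 0.05. With all arrays, 5 were lower without the block and 7 with it. The dim genes leaned lower in proportion. Of the 18 with a mean under 3, 15 were lower and 3, or 16.7%, higher in ventral tissue. Among all 9153 genes with a mean under 3, 32.2% were higher. The median difference of the 18 was -0.34, against -0.12 over those 9153 genes. At an unadjusted p under 0.05, 5 of the 18, 27.8%, were lower, against 7.33% of the 9153. All ventral arrays lay below all dorsal arrays in 4 of the 18, 22.2%, against 16.6% of the 9153. The 28 histone genes with a mean of at least 3 were evenly split, with 14 higher and 14 lower, a median of 0.02 and a range from -2.13 to 2.81.

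**Figure D2:**
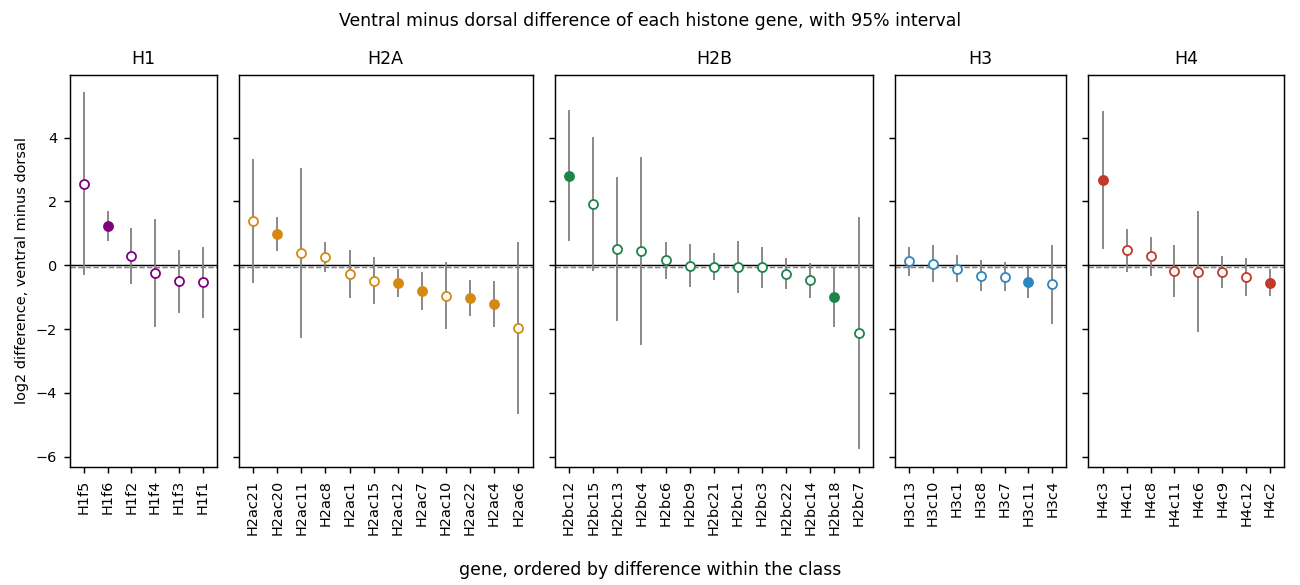
Log2 difference, ventral minus dorsal (vertical axis), of each histone gene by class, with the 95% interval of the limma fit as a bar; filled points have an unadjusted p under 0.05 and the dashed line is the median of all genes, -0.06. The 11 filled points comprise 4 above 0 and 7 below 0, and none of the 46 passed the adjusted threshold.

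Among linker histones, H1f6 had the smallest p of the 46 genes. H1f6, known as H1t and in adults made in male germ cells, was at 3.85, 4.11 and 3.99 in ventral arrays 1 to 3 and at 2.70, 2.58 and 3.00 in dorsal arrays 1 to 3. The dorsal values lay below the array medians and the ventral ones above them, and the groups did not overlap. The difference was 1.22 ± 0.19 (SE), with an unadjusted limma p of 0.00078 and an adjusted p of 0.313. Over the 15 alternatives its adjusted p ranged from 0.123 to 0.541 and its difference from 1.07 to 1.34. For H2ac1 and H2bc1, the testis forms of H2A and H2B, the differences were -0.27 ± 0.30 and -0.06 ± 0.33. The medians of 6 germ-cell markers, such as Dppa3 and Ddx4, lay between 2.99 and 3.26 in ventral and between 3.31 and 3.71 in dorsal arrays, and 4 of the 6 had lower ventral means.

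In each of the somatic H1 genes the difference between tissues was smaller than the SD within at least 1 tissue. H1f5, a replication-dependent linker histone, was at 5.23, 1.94 and 8.84 in the ventral arrays and at 2.93, 2.61 and 2.80 in the dorsal arrays. Ventral arrays 1 and 3 stood above the rest and ventral array 2 below them, and the difference of 2.56 had a 95% interval from -0.30 to 5.42. H1f3 was at 4.41 to 4.54 in ventral arrays, against 4.46, 4.21 and 6.28 in dorsal arrays 1 to 3. H1f1 was at 3.73 to 3.99 in ventral arrays and at 5.54, 4.29 and 3.34 in the dorsal arrays. For these and for H1f2 (0.29 ± 0.36) and H1f4 (-0.25 ± 0.68) the groups overlapped. The median difference of the 6 H1 genes was 0.02.

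H2A genes had the most negative class median, -0.53 over 12 genes, of which 4 were higher and 8 lower in ventral tissue. The SD of that median over the 3 pairs was 0.44, and without dorsal array 2 it was -0.12. Among bright H2A genes, H2ac22 was at 5.79, 7.35 and 6.89 in the ventral arrays and at 6.52, 8.12 and 8.45 in the dorsal arrays. The ventral array was the lower one in each equal-numbered pair, while the groups overlapped. The difference was -1.02 ± 0.23, with an unadjusted p of 0.0048 (adjusted p 0.427) in limma with the block and 0.112 (adjusted p 0.526) without it. H2ac20, on chromosome 3, went the other way, with 5.09, 5.64 and 6.34 in the ventral arrays against 3.91, 5.13 and 5.07 in the dorsal arrays. Here the ventral array was the higher one in each pair, while the groups overlapped, as ventral array 1 lay below dorsal array 2. The difference was 0.99 ± 0.22, with an adjusted limma p of 0.412 with the block and 0.441 without it.

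The other bright H2A genes overlapped between tissues as well. H2ac10 had values from 6.29 to 7.55 in ventral arrays and of 6.04, 8.58 and 8.64 in dorsal arrays 1 to 3. H2ac11 had values from 6.15 to 8.57 in ventral arrays, and 4.32 in dorsal array 1 against 8.98 and 8.02 in dorsal arrays 2 and 3. Among dim H2A genes, H2ac4 was at 2.06, 2.28 and 2.08 in the ventral and 2.63, 4.27 and 3.17 in the dorsal arrays, a difference of -1.22 ± 0.29 without overlap (adjusted p 0.435 in limma). H2ac12 (-0.57 ± 0.18) did not overlap either, and H2ac7 (-0.81 ± 0.24) overlapped through dorsal array 1. Both had all values under 3, in the range where all genes leaned towards lower ventral values. H2ac8 (0.25 ± 0.19) and H2ac15 (-0.49 ± 0.30) were dim too, and their groups overlapped. H2ac21, the other H2A gene of the chromosome 3 cluster, stood out in 1 array, with 6.73 in ventral array 1 against 2.21 and 2.68 in the other ventral arrays and 2.35 to 2.76 in the dorsal arrays.

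The brightest histone gene, H2bc13, and the gene with the widest range over the 6 arrays, H2bc7, were H2B genes, while the median range of the class, 1.42, was below those of H2A, 2.32, and H1, 2.25. H2bc13 was at 10.7, 8.74 and 8.08 in the ventral arrays and at 7.38, 10.7 and 7.85 in the dorsal arrays, so each tissue had 1 array near the top. H2bc12 was at 8.72, 9.84 and 4.64 in the ventral arrays and at 6.19, 4.51 and 4.06 in the dorsal arrays. Its ventral value was the higher one in each pair, with ventral array 3 inside the dorsal range. The difference was 2.81 ± 0.83, with an adjusted p of 0.442 in limma and between 0.286 and 0.745 over the 15 alternatives. H2bc15 was at 6.68, 11.1 and 5.46 in the ventral arrays and at 5.57, 6.40 and 5.48 in the dorsal arrays. Ventral array 2 was far above the others, and the difference was 1.92 ± 0.85 with it and 0.25 without it.

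Of the other H2B genes, H2bc18, on chromosome 3, was at 2.58, 2.75 and 3.06 in the ventral arrays and at 3.85, 4.60 and 2.93 in the dorsal arrays. The groups overlapped through ventral array 3, and the difference was -0.998 ± 0.383. H2bc14 (-0.48 ± 0.22), H2bc22 (-0.26 ± 0.20) and H2bc1 were dim, with no array above 3.41. H2bc6, at 4.62, 3.98 and 4.87 in the ventral and 4.31 to 4.36 in the dorsal arrays, had a difference of 0.15 ± 0.23. H2bc3, H2bc9 and H2bc21 had differences between -0.07 and -0.01. The class median over the 13 H2B genes was -0.05, and it changed sign to 0.04 after cyclic loess between arrays.

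H3 genes were the dimmest class. H3c10 was at 5.42, 5.43 and 5.93 in the ventral arrays and at 4.83, 5.45 and 6.35 in the dorsal arrays, so the ventral values lay inside the dorsal range and the difference was 0.05, with a 95% interval from -0.54 to 0.64. H3c7 was at 1.65 to 1.82 in ventral and 1.90 to 2.21 in dorsal arrays, without overlap, and H3c11 was at 1.58 to 2.14 in ventral and 1.88 to 3.05 in dorsal arrays. Their differences were -0.36 ± 0.19 and -0.52 ± 0.20. H3c8 (-0.32), H3c4 (-0.59), H3c1 (-0.11) and H3c13 (0.13) overlapped between tissues. The class median was -0.32, and all but H3c10 had means below the array medians.

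H4 genes, whose copies encode the same small core histone, ranged from a mean of 1.81 for H4c2 to 7.12 for H4c12. H4c12 had the narrowest range of the 10 histone genes with a mean of at least 5, at 6.96, 6.84 and 7.00 in the ventral arrays and at 7.16, 7.78 and 6.97 in the dorsal arrays, a difference of -0.37 ± 0.24. H4c3 was at 6.15, 7.95 and 8.14 in the ventral arrays and at 4.61, 7.04 and 2.57 in the dorsal arrays. The ventral array was the higher one in each pair, while dorsal array 2 exceeded ventral array 1. The difference of H4c3 was 2.68 ± 0.88, with an adjusted p of 0.460 in limma and between 0.266 and 0.704 over the 15 alternatives. H4c2 was lower in all ventral arrays, at 1.43 to 1.63 against 1.82 to 2.29 in dorsal arrays, both below the array medians. H4c1 (0.47 ± 0.27), H4c8 (0.28 ± 0.25), H4c9 (-0.22 ± 0.20), H4c11 (-0.18 ± 0.33) and H4c6 (-0.20 ± 0.76) overlapped. The class median was -0.19. H4f16, an H4 gene on another chromosome whose symbol falls outside the rule, was at 3.82, 3.11 and 3.74 in the ventral and 2.86, 2.46 and 3.05 in the dorsal arrays, without overlap.

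By cluster, the 41 genes on chromosome 13 had a median difference of -0.22, with 14 higher and 27 lower in ventral tissue. The 5 genes on chromosome 3 had a median of 0.13, with H2ac20, H2ac21 and H3c13 higher and H2bc18 and H2bc21 lower. The SDs of these medians over the 3 pairs were 0.30 and 0.23, and the difference between the clusters was not tested.

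Many histone genes had a large spread over the 6 arrays. The highest and lowest of the 6 arrays lay more than 4 log2 units apart in 10 of the 46 genes, 21.7%, against 0.657% of all genes. The 10 were H2bc7, H1f5, H2bc4, H2ac6, H2bc12, H2bc15, H4c3, H2ac11, H2ac21 and H4c6. Such a range was not limited to histone genes. It was seen in 162 of all genes, among them Scarna9, at 8.53, and Mir3064, at 8.87 log2 units. Among genes whose highest array exceeded 5, the share was 10 of 19 histone genes, 52.6%, against 6.40% of the 2530 genes of that kind. In 8 histone genes, 17.4%, at least 1 array lay below 3 and at least 1 above 5, against 1.06% of all genes. The limits of 4, 3 and 5 were chosen after the values were seen.

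In several of these genes 1 array carried the whole signal. H2bc7 was at 9.20 in dorsal array 2 and between 1.50 and 2.14 in the other 5. H2ac6, chosen here after its values were seen, was at 8.41 in dorsal array 2 and between 1.84 and 2.80 in the other 5. H2bc4, chosen likewise, was at 9.04 in that array too, but also at 6.92 and 6.19 in ventral arrays 1 and 2, and at 2.40 to 2.85 in the remaining 3. Dorsal array 2 was thus the high one for all 3 genes, while H4c3, H2bc12 and H1f5 were not highest in it. The differences between tissues were -2.13 ± 1.47 for H2bc7, -1.96 ± 1.09 for H2ac6 and 0.45 ± 1.19 for H2bc4. Without dorsal array 2 the difference of H2bc7 turned positive, to 0.39.

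**Figure D3:**
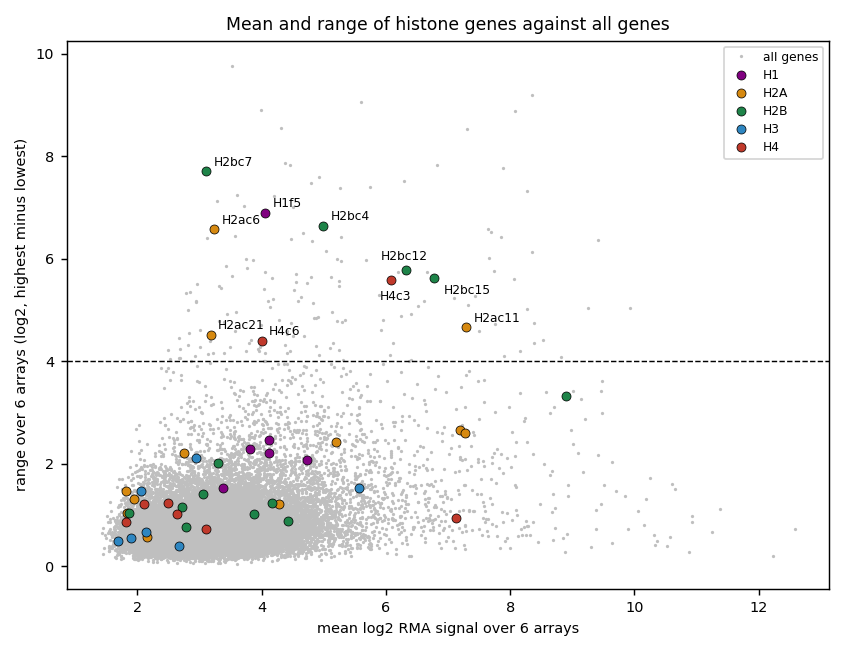
Range over the 6 arrays (highest minus lowest log2 signal, vertical axis) against the mean log2 signal (horizontal axis) of all 24675 genes (grey) and of the 46 histone genes (coloured by class). The 10 histone genes above the dashed line at 4 are named.

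Arrays agreed less closely over the histone genes than over the whole table. Across the 46 genes, Pearson correlations between ventral arrays were 0.671 to 0.841, those between ventral and dorsal arrays 0.555 to 0.817, and those between dorsal arrays 0.601 to 0.790. Across all genes, the values were 0.887 to 0.898, 0.818 to 0.853 and 0.813 to 0.828. These describe the arrays, and genes are not independent replicates. The lowest value among the histone genes, 0.555, was between ventral array 3 and dorsal array 2.

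Many H2A and H2B genes lie head to head and share the short stretch of DNA between their starts, which holds the promoters of both. By order and strand in the RefSeq tables, 5 pairs of measured histone genes were head to head less than 1000 bases apart, all of them an H2A with an H2B gene, with 163 to 280 bases between them. In 3 of the 5 pairs both genes had a difference of the same sign, and in 1 pair both were highest in the same array. H2bc7 and H2ac7 were both highest in dorsal array 2, at 9.20 and 2.75. H2ac12 stayed between 1.38 and 2.42 while its partner H2bc12 ranged from 4.06 to 9.84, and H2ac15 stayed between 1.61 and 2.94 while H2bc15 ranged from 5.46 to 11.1. H2ac22 was bright and H2bc22 dim, at 2.53 to 3.30. H2ac6 and H2bc4 are neighbours with 239 bases between them, and the strand of H2bc4 is not in the promoter table. Both were highest in dorsal array 2, but only H2bc4 was bright in ventral arrays 1 and 2. H2ac20 and H2bc21, on chromosome 3, lie 191 bases apart, and the strand of H2bc21 is not in the promoter table either. Their differences were 0.99 and -0.05, and they were highest in ventral array 3 and dorsal array 3.

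**Figure D4:**
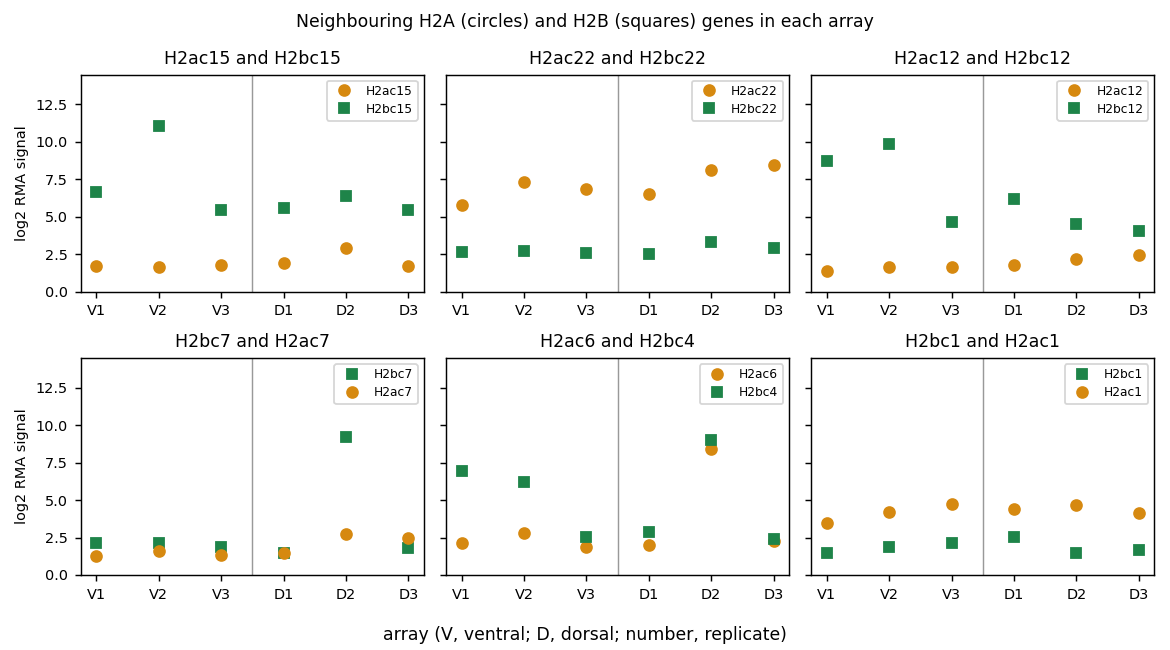
Log2 RMA signal (vertical axis) in each array (horizontal axis; V1 to V3 ventral, D1 to D3 dorsal) of 6 pairs of neighbouring H2A (orange circles) and H2B (green squares) genes. H2ac6 and H2bc4 both peak in D2, at 8.41 and 9.04, while H2ac12 and H2ac15 stay low where H2bc12 and H2bc15 are high. The pair of H2ac20 and H2bc21 is not shown.

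Shown are the stretches between H2bc7, H2bc12, H2bc15 and H2ac22 and their head-to-head partners. The rule was that the brighter gene of the pair exceeded a log2 signal of 5 in at least 1 array. The pair of H2bc1 and H2ac1 did not meet it. The stretch between H2ac6 and H2bc4 is shown because both were highest in dorsal array 2, although a head-to-head order is not established for them. The upstream stretches of H4c3 and H1f6 are shown because these genes had higher ventral values in each pair. That also held for H2ac20, whose upstream stretch is not shown. The printed sequences come from RefSeq, build GRCm38.p6, run 5′ to 3′ towards the start of the first-named gene, and end at that start. Capitals mark the CCAAT box (CCAAT), the TATA box (TATAAA), the octamer ATTTGCAT known from H2B promoters and the H1 box (AAACACA), on either strand.
H2bc7, to H2ac7, chr13:23574208-23574380, minus strand: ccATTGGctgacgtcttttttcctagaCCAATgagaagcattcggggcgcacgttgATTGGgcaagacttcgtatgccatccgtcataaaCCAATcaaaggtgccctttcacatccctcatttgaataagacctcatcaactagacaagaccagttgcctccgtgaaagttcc
H2ac6, to H2bc4, chr13:23683960-23684198, minus strand: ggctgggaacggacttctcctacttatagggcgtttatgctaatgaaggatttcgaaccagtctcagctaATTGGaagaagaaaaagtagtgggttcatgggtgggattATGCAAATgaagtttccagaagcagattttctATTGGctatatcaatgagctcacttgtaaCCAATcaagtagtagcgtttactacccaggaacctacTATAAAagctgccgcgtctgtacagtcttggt
H2bc12, to H2ac12, chr13:22035644-22035820, plus strand: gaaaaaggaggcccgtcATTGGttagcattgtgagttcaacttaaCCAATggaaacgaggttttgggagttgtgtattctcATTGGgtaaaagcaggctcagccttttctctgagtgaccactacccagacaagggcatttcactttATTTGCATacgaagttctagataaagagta
H2bc15, to H2ac15, chr13:21753913-21754075, plus strand: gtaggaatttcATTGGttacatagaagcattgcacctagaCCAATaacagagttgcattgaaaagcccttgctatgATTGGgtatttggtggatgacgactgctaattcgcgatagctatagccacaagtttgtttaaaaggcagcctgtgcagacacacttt
H2ac22, to H2bc22, chr13:21787249-21787482, minus strand: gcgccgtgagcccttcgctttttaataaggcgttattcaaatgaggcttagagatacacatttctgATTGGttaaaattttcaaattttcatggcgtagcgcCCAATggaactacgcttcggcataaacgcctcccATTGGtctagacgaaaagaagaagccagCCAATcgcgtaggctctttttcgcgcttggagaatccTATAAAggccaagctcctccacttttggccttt
H4c3, upstream, chr13:23698459-23698708, minus strand: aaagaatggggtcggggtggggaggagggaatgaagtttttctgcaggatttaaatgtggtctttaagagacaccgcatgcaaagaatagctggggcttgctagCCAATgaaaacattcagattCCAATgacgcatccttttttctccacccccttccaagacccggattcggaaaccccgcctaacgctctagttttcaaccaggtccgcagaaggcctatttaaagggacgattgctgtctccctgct
H1f6, upstream, chr13:23695561-23695810, plus strand: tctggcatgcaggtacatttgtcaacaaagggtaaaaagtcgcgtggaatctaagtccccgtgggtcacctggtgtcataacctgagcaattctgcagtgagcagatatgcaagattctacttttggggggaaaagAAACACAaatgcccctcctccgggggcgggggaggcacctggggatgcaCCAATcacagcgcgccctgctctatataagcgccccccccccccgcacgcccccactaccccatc

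Of the 46 genes, 42 had an entry in the promoter table, and H2bc4, H3c7, H3c1 and H2bc21 had none. The motifs were searched on both strands of the 250 bases before the start, and a match is a description of letters, not of a bound site. CCAAT was found in 36 of the 42 windows, 85.7%, against 34.5% of the 27025 promoters of the table. It was in all H1, H2A, H2B and H3 windows and in 2 of 8 H4 windows, and the stretch upstream of H4c3 printed above holds 2 copies. TATAAA was found in 23 windows, 54.8%, against 13.0% of all promoters. The octamer was found in 6 of 12 H2A and 5 of 11 H2B windows and in 0 of the 19 others, against 1.61% of all promoters. Windows of paired genes overlap, so 1 octamer can count for both genes, as in the stretch between H2bc12 and H2ac12. The H1 box was found in 5 of 6 H1 windows, that of H1f6 included, in 2 of 12 H2A, 2 of 11 H2B and 0 of the 13 H3 and H4 windows, and in 6.22% of all promoters.

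Genes that make, process or handle histones gave smaller differences. The lists were written with earlier results of these data known. Of 10 measured genes of histone transcription, 4 were higher and 6 lower in ventral tissue and 0 passed the limma threshold. Casp8ap2, the FLASH protein of the histone locus body, was at 3.65 to 3.86 in ventral and 2.87 to 3.47 in dorsal arrays, without overlap, and Hinfp, an activator of H4 genes, had a difference of -0.48 ± 0.27. Ldha, a glycolytic enzyme also found in the coactivator of H2B genes, was at 5.19, 5.24 and 4.48 in the ventral arrays and at 5.83, 5.94 and 5.83 in the dorsal arrays. Gapdh, another enzyme of that coactivator, was listed at 1.65 to 1.99 in ventral and 2.03 to 2.53 in dorsal arrays, although it is a gene that most cells transcribe strongly. A low signal in this table was therefore not read as a rare transcript.

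Of 20 measured genes of histone message processing and decay, 8 were higher and 12 lower in ventral tissue, 0 passed, and the median difference was -0.10. Snrpd3, an Sm protein of spliceosomal and U7 particles, was at 5.10, 5.33 and 5.34 in the ventral arrays and at 3.41, 3.88 and 4.60 in the dorsal arrays (adjusted p 0.373 in limma). The groups did not overlap. Lsm10, a protein of the U7 particle that cuts histone messages, had a difference of -0.40 ± 0.20, Zfp473, which works beside it, one of -0.51 ± 0.19, and Snrpf one of -0.56 ± 0.33.

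Of 19 measured histone chaperones and import factors, 15 were higher in ventral tissue, 78.9%, against 42.0% of all genes. The median was 0.16, and 0 passed the threshold. Of the 19, only 2 had a mean under 3, and 47.9% of all genes with a mean of at least 3 were higher. In 5 of the 19, 26.3%, all ventral arrays exceeded all dorsal ones. That held for 6.74% of all genes and for 8.42% of those with a mean of at least 3. Asf1a, which hands H3 and H4 dimers to assembly factors, was at 5.36, 6.38 and 5.96 in the ventral arrays and at 4.58, 4.15 and 3.76 in the dorsal arrays, a difference of 1.74 ± 0.33 with an adjusted limma p of 0.378. Atrx, a chromatin remodeller that deposits an H3 variant, differed by 0.88 ± 0.21, Kpnb1, an import receptor, by 0.65 ± 0.20 and Cdan1, a partner of Asf1, by 0.38 ± 0.17. The other gene without overlap was Hira, with a difference of 0.12, named after its values were seen.

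Of 26 measured S-phase genes, 15 were higher in ventral tissue and the median was 0.17, while 0 passed. All ventral arrays exceeded all dorsal arrays in 8 of the 26, 30.8%, and the opposite held in 0. Ventral arrays were all higher in 6.74% of all genes and in 8.42% of those with a mean of at least 3. Of the 26, only 3 had a mean under 3. Mcm3 and Mcm4, subunits of the replicative helicase, differed by 1.05 ± 0.19 and 1.06 ± 0.32, and Rrm1, a subunit of ribonucleotide reductase, by 0.60 ± 0.18. Pcna, the polymerase clamp, was at 10.6, 10.3 and 10.6 in the ventral arrays and at 9.19, 1.43 and 7.95 in the dorsal arrays, with its lowest value in dorsal array 2, the array with the high values of H2bc7, H2ac6 and H2bc4. The histone genes, with 17 of 46 higher and a median of -0.19, and the S-phase genes, with 15 of 26 higher and a median of 0.17, had medians of opposite sign in the full table. The histone median was -0.028 without genes under the 25th percentile of mean signal, 0.053 without genes under the median and -0.00 without dorsal array 2, and the difference between the lists was not tested.

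Of 14 measured histone variants not made in S phase alone, 7 were higher and 7 lower in ventral tissue. Of these, 0 passed, and the median difference was 0.00. H2ax, the variant phosphorylated at DNA breaks, was at 4.38, 5.40 and 4.33 in the ventral arrays and at 2.86, 4.19 and 4.15 in the dorsal arrays, without overlap. H3f3a, which encodes H3.3, differed by 1.02 ± 0.24, and H2ab2 by 0.72 ± 0.24. Macroh2a2, a variant with a large extra domain, was at 6.64, 7.35 and 9.40 in the ventral arrays and at 9.38, 9.76 and 9.67 in the dorsal arrays, where only ventral array 3 reached the dorsal range. Its difference was -1.81 ± 0.48, with an adjusted p of 0.437 in limma. A short list of histone genes known from germ cells or from outside the main clusters had 5 measured entries, among them H1f6, H2ac1, H2bc1 and H4f16, with 2 higher and 3 lower in ventral tissue.

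**Figure D5:**
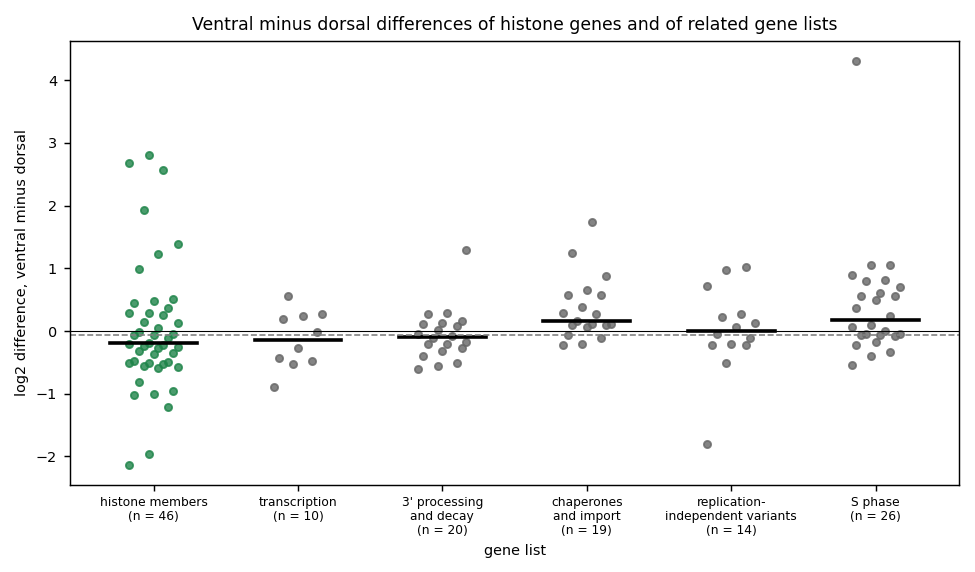
Log2 difference, ventral minus dorsal (vertical axis), of the 46 histone genes (green) and of 5 related gene lists (grey); each point is a gene, the thick bars are medians and the dashed line is the median of all genes, -0.06. The histone genes spread from -2.13 to 2.81, and the medians of the chaperone and S-phase lists are 0.16 and 0.17.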

How the data were processed

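The deposited values are log2 signals, 1 per probe set and array, made by the authors with Affymetrix Expression Console and RMA, as the submitters' processing notes name them. This method brings all arrays to a common distribution and summarises probes, so differences between arrays in total signal are removed. The values lay between 0.97 and 12.9, from which the log base was inferred. Of 25429 probe sets, 24675 had 1 gene symbol in the platform annotation and 754 were not listed there. Ventral was compared with dorsal tissue over all 24675 genes with limma 3.58.1 in R 4.3.3 (lmFit, eBayes, two-sided, Benjamini-Hochberg adjustment, threshold 0.05), with the replicate number as a block and no filter on dim genes. Both regions were cut from the same embryos, per the labels, which do not tie the numbers to embryos; deviations from the group means correlated at 0.04, -0.01 and 0.06 between equal numbers. The procedure was also run on simulated data with independent normal noise. These data held no replicate effect and no outlying arrays, so they do not show how such arrays act on the fit. With 3 arrays per region an exact unpaired permutation test of 1 gene cannot go below 0.1, and one that keeps the equal-numbered pairs has a higher floor. Whether samples are separate litters is not stated, so p-values cover only the spread between these arrays, and the number of arrays limits the precision.

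The histone genes and all lists were chosen with earlier results of these data known, so they are described by counts and medians. Histone genes were named where the mean was at least 5, where they were among the 3 smallest p of a class in a direction, or where they were the brightest of a cluster; this gave 32 genes, the other 14 are given by their differences, and up to 4 genes per related list were named by smallest p. Promoters and gene order came from RefSeq tables of GRCm38.p6. Alternatives were the fit without the block, cyclic loess, median centring, 2 filters on dim genes, a trended eBayes fit and leaving out arrays. Arrays were left out singly, in fits without the block, or as equal-numbered pairs, in fits with it.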

Additional observations from a re-analysis of the deposited data

How the results depend on the processing

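None of the 46 histone genes was called under any of the 15 alternatives run. Without the replicate block limma called 1 of all genes, Hspb11, which is no histone gene, with an adjusted p of 0.0103; no histone gene passed the adjusted threshold with or without the block, while at an unadjusted p under 0.05 the counts were 3 higher and 5 lower without it. Leaving out arrays gave 0 to 5 called genes in the whole table, none of them a histone gene. At an unadjusted p under 0.05, leaving out arrays gave 2 to 8 higher and 2 to 9 lower histone genes, and the lower ones numbered 4 after cyclic loess, 2 without genes under the 25th percentile and 1 without genes under the median, since both filters remove dim genes. Histone genes with all ventral arrays higher numbered 2 after cyclic loess, 3 after median centring and 1 to 8 when arrays were left out, where fewer arrays make overlap rarer. Those with all ventral arrays lower numbered 0 under both filters and 5 to 15 when arrays were left out. The median of the histone genes was -0.087 after cyclic loess, -0.028 and 0.053 under the filters, and -0.31 to -0.00 when arrays were left out. The H2B median was 0.30 without genes under the median and -0.23 to 0.30 without single arrays or pairs, and the H4 median -0.33 to 0.22. Without genes under the median the H3 median was 0.053, from 1 gene, and that of chromosome 13 was 0.10; without genes under the 25th percentile that of chromosome 3 was 0.47. Of the 32 genes named by rule, 12 changed the sign of their difference in at least 1 alternative, none of them called. Leaving out copies with identical proteins was not run, as it needs protein sequences not used here. Signal near or below the array medians limits what the dim genes can show.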
